A study of Homo sapiens with 6 samples.

Results

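Transcript levels of the class II and class IV histone deacetylases were examined in WM164 cells, a human melanoma line with the BRAFV600E genotype. The 7 genes, HDAC4, HDAC5, HDAC6, HDAC7, HDAC9, HDAC10 and HDAC11, were taken by symbol from a table of 60504 genes, and all 7 were among the 26162 genes tested. The EV group held 3 libraries of cells with an empty expression vector, and the HDAC8 group 3 libraries of cells labelled with a vector for HDAC8, a class I deacetylase. Both kinds of cell were transfected with plasmid and maintained in hygromycin, and whether each line was a pool or 1 clone is not given in the sources used here. The question was whether the other deacetylases of the cell differed once the vector for HDAC8 had been introduced.

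Histone deacetylases remove acetyl groups from lysines and fall into classes by sequence. Class IIa (HDAC4, HDAC5, HDAC7 and HDAC9) has weak catalytic activity of its own and acts mostly as a scaffold, binding MEF2 transcription factors and the NCOR corepressor complex that carries HDAC3. Phosphorylation by CAMK, PRKD and SIK kinases sends class IIa proteins out of the nucleus, bound to 14-3-3 proteins. Class IIb comprises HDAC6, a cytoplasmic enzyme that deacetylates tubulin, and HDAC10, which removes acetyl groups from polyamines. HDAC11 is the single class IV member and is known mainly for removing fatty acyl groups. HDAC9 is itself a known MEF2 target gene.

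The libraries held between 34741083 and 42041462 counts. The transcript of HDAC8 itself had 383.8 to 478.8 normalized counts in EV and 445.5 to 484.8 in the other group, so it does not check the labels. Directions below therefore compare libraries by their labels, and HDAC8 group means the libraries so labelled. Mitochondrially encoded transcripts took 9.66% to 12.8% of the counts in EV and 4.46% to 7.94% in the libraries labelled HDAC8. Without the mitochondrial genes, an alternative chosen after seeing the data, the same number of members was called, 2 higher and 0 lower. HDAC8 replicate 1 stood apart from the other libraries of its group and its values are given beside the results below. Of 7 melanocytic markers 6 were detected in all 6 libraries, and TYRP1 was at 0 in HDAC8 replicates 1 and 2 and at most 62.9 elsewhere. MLANA, PMEL, TYR and DCT, 4 of the 7, were lower, MLANA by a log2 fold change of -4.84. MITF (-0.20), SOX10 (-0.33) and TYRP1 were not called. Summed normalized counts of all 7, most of it PMEL, were 243744.4 to 327504.4 in EV and 136367.6 to 181340.4 in the HDAC8 group. Of 5 leukocyte markers 2 were higher (CD3E and CD68), with sums of 2300.7 to 3302.4 and 4272.9 to 6164.6, nearly all of it CD68, while PTPRC was at 2.6 at most. Of the fibroblast, endothelial and epithelial markers none was called, and DCN, CDH5 and EPCAM were at 0 in every library. LUM, on the fibroblast list, was well detected, at 2205.0 to 2662.4 in EV and 1054.3 to 2157.9 in the HDAC8 group (DESeq2 adjusted p = 0.0778). VWF reached 208.6, COL1A1 105.4, PDGFRB 88.1 and CDH1 82.8 in single libraries, and the rest of these lists 63.0 at most. The part of these markers in the results was not tested. Counts come from whole cultures, so a change in the share of cells cannot be told apart from a change in RNA per cell.

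HDAC9 and HDAC6 were higher in the libraries labelled HDAC8, and the remaining 5 members did not pass the test. HDAC9 rose 2.66-fold and HDAC6 1.70-fold. No member was lower. The DESeq2 test, with calls at an adjusted p under 0.05 and a log2 fold change of 0.58 or more in either direction, gave 2 members higher and 0 lower, where 5.57% of all genes with an adjusted p were called higher and 5.44% lower. At an unadjusted p under 0.05 the counts were also 2 and 0, and edgeR gave 2 and 0. The median log2 fold change of the 7 members was 0.29, against -0.00012 over all tested genes. With 7 genes, nothing particular to the family is read from these counts.

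Reference promoters of HDAC9, the member with the largest change, are shown because it has start sites far apart and the table gives a single value for all of its transcripts. The sequences are from RefSeq (GRCh38.p14), plus strand, running from 250 bases before a start site to 50 bases after it. The distal window lies at chr7:18086575-18086874 and the internal window at chr7:18495499-18495798. Capitals mark matches to motifs that were searched on both strands.
HDAC9 distal: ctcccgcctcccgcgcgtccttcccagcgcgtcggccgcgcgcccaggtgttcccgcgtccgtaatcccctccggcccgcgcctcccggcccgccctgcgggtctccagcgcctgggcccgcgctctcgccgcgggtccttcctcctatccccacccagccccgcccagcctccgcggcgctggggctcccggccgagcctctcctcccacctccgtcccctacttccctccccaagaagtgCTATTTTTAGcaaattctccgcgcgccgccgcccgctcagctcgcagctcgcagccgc
HDAC9 internal: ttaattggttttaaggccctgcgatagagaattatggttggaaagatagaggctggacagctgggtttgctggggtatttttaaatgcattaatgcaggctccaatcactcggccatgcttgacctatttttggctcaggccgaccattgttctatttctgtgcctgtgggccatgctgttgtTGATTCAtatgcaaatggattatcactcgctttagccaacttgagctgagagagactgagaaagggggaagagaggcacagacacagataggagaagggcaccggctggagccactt

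The distal window had a GC content of 75% with 41 CpG dinucleotides, and held 1 match to the MEF2 motif (CTA, any 4 bases, then TAG), which began 8 bases before the start site. The internal window had a GC content of 47.3% with 5 CpG dinucleotides and no MEF2 match. It held 1 match to the pattern searched for AP-1 (TGANTCA), which leaves the middle base open. The letters found were TGATTCA, so a match to this loose pattern is not by itself an AP-1 site. The table of promoters held 16 windows for 6 of the members and none for HDAC5. Not shown for HDAC9 are an internal window from 18495460 that overlaps the printed one and holds the same TGATTCA. Further internal windows, from 18496012 and from 18509020, held no match to any motif searched. A MEF2 match was in 1 of these 16 and in 2.73% of 35116 promoters of the same length. The loose pattern TGANTCA was in 2 of 16, which are overlapping windows of HDAC9, and in 7.71% of all. The E-box CACGTG, the core that MITF binds, was in 1 of the 16, at HDAC4 13 bases before the start site, and in 7.26% of all. The CRE motif (TGACGTCA) was in 0 of 16 and in 1.85% of all. The motifs did not overlap one another in these windows, and a match says only that these letters are present.

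**Figure D1:**
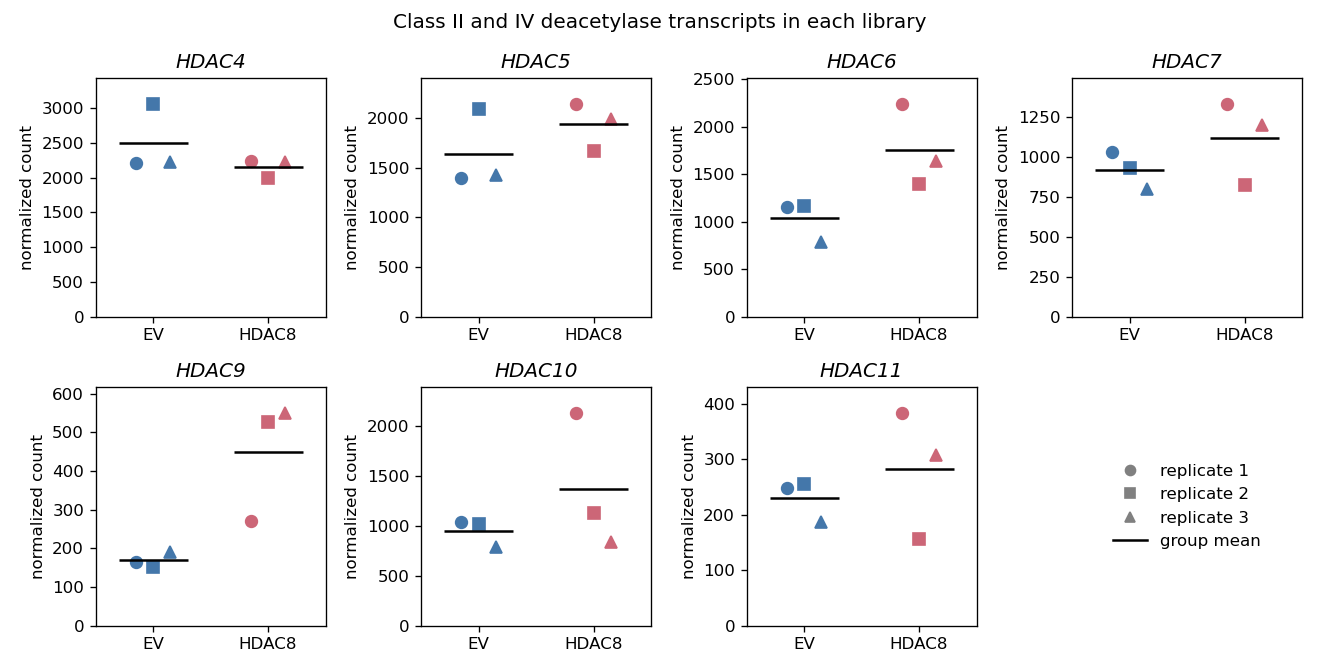
Normalized counts of each class II and IV deacetylase in the 3 EV and 3 HDAC8 libraries, with a point per library and a line at the group mean; each panel has its own vertical axis from 0. Only in HDAC9 and HDAC6 do all HDAC8 libraries lie above all EV libraries, and HDAC8 replicate 1 is the highest of its group for every member except HDAC9.

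Among the class IIa genes, HDAC9 (ENSG00000048052, GRCh38 chromosome 7, 18086949 to 19002416, plus strand) had the lowest level per kilobase and the largest change. It had 163.6, 152.2 and 191.1 normalized counts in EV and 271.1, 526.4 and 549.9 in the libraries labelled HDAC8. The groups did not overlap, which was also true of 24% of all tested genes, 11.3% with the HDAC8 group higher. HDAC8 replicate 1 was the lowest of its group and lay nearer to EV than to the other libraries of its own label. The mean was 169.0 ± 20 in EV and 449.1 ± 154.7 in the HDAC8 group (SD, n = 3 each). On the log2 scale it rose by 1.41 (SE 0.38, DESeq2 adjusted p = 0.00357), a fold of 2.66 with a 95% interval of 1.58 to 4.48. The call was lost without HDAC8 replicate 3, with a log2 fold change of 1.24 and an adjusted p of 0.0785. Without HDAC8 replicate 1 the log2 fold change was 1.67 (DESeq2 adjusted p = 6.25e-05), and over 15 alternatives the adjusted p ran from 6.25e-05 to 0.0785.

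The other class IIa genes all had higher levels per kilobase than HDAC9 and were not called. HDAC4 (ENSG00000068024, chromosome 2, 239048168 to 239401654, minus strand), a scaffold deacetylase known from muscle, bone and neurons, had normalized counts of 2211.5, 3064.2 and 2220.5 in EV and 2245.4, 1994.0 and 2225.8 in the HDAC8 group. EV replicate 2 was the highest and the other 5 libraries lay close together. Its log2 change of -0.21 (with SE 0.19, by DESeq2 adjusted p = 0.574) had an interval of -0.58 to 0.15, and was at -0.25 without HDAC8 replicate 1 and at -0.04 without EV replicate 2. HDAC4 was the only member with a negative value.

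HDAC5 (ENSG00000108840, chromosome 17, 44076746 to 44123702, minus strand), a close relative of HDAC4, had 1396.7, 2094.8 and 1426.5 normalized counts in EV and 2142.8, 1672.4 and 1995.0 in the HDAC8 group. The groups overlapped through EV replicate 2. A log2 change of 0.24 (with SE 0.21, by DESeq2 adjusted p = 0.582) had an interval of -0.18 to 0.66, and was at 0.16 without HDAC8 replicate 1 and at 0.45 without EV replicate 2. HDAC7 (ENSG00000061273, chromosome 12, 47782722 to 47833132, minus strand), known for its part in thymocytes and endothelium, had 1032.9, 928.3 and 800.9 in EV and 1333.1, 822.4 and 1197.8 in the HDAC8 group. HDAC8 replicate 2 lay within the EV range while the other libraries of its group were above it. HDAC7 had a log2 change of 0.28 (with SE 0.24, by DESeq2 adjusted p = 0.574) with an interval of -0.20 to 0.76, and was at 0.13 without HDAC8 replicate 1 and at 0.46 without HDAC8 replicate 2.

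Of the class IIb genes, HDAC6 was called and HDAC10 was not. HDAC6 (ENSG00000094631, chromosome X, 48801377 to 48824982, plus strand) had normalized counts of 1158.7, 1167.4 and 784.2 in EV and 2240.3, 1398.0 and 1638.9 in the HDAC8 group. The lowest of the HDAC8 libraries was above the highest EV library, and HDAC8 replicate 1 was well above the rest. The mean was 1036.8 ± 218.8 against 1759.0 ± 433.8 (SD, n = 3 each). The rise was 0.76 on the log2 scale (SE 0.24, DESeq2 adjusted p = 0.0168), a fold of 1.70 with an interval of 1.22 to 2.36. The call was lost without HDAC8 replicate 1 (log2 fold change 0.55, DESeq2 adjusted p = 0.0896), without EV replicate 3 (0.59, adjusted p = 0.164) and without HDAC8 replicate 3 (0.81, adjusted p = 0.0543). The adjusted p ran from 0.0058 to 0.164 over the same 15 alternatives, and the HDAC6 call thus needed each of those 3 libraries.

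HDAC10 (ENSG00000100429, chromosome 22, 50245183 to 50251405, minus strand) had 1035.0, 1018.9 and 792.0 normalized counts in EV and 2135.1, 1126.6 and 838.5 in the HDAC8 group. HDAC8 replicate 1 alone was high, replicate 2 was just above the EV range and replicate 3 within it. A log2 change of 0.53 (with SE 0.30, by DESeq2 adjusted p = 0.292) came down to 0.05 without HDAC8 replicate 1 (adjusted p = 0.951, with a range of 0.0872 to 0.951 over the alternatives). In the annotation 2763 exonic bases of HDAC10 are shared with MAPK12 on the same strand, so reads may have been divided between them. MAPK12, outside the naming rule, had a mean of 1361.7 in EV and 1503.6 in the HDAC8 group (log2 fold change 0.14, DESeq2 adjusted p = 0.824).

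The class IV gene HDAC11 (ENSG00000163517, chromosome 3, 13479724 to 13506424, plus strand) had 248.5, 255.9 and 187.2 normalized counts in EV and 383.9, 155.7 and 308.2 in the HDAC8 group. The HDAC8 libraries lay on both sides of the EV range. HDAC11 had a log2 change of 0.29 (with SE 0.43, by DESeq2 adjusted p = 0.791), whose interval of -0.54 to 1.13 was the widest among members that were not called. Without HDAC8 replicate 1 it was at 0.01, and without HDAC8 replicate 2 at 0.59, so single libraries set its size.

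**Figure D2:**
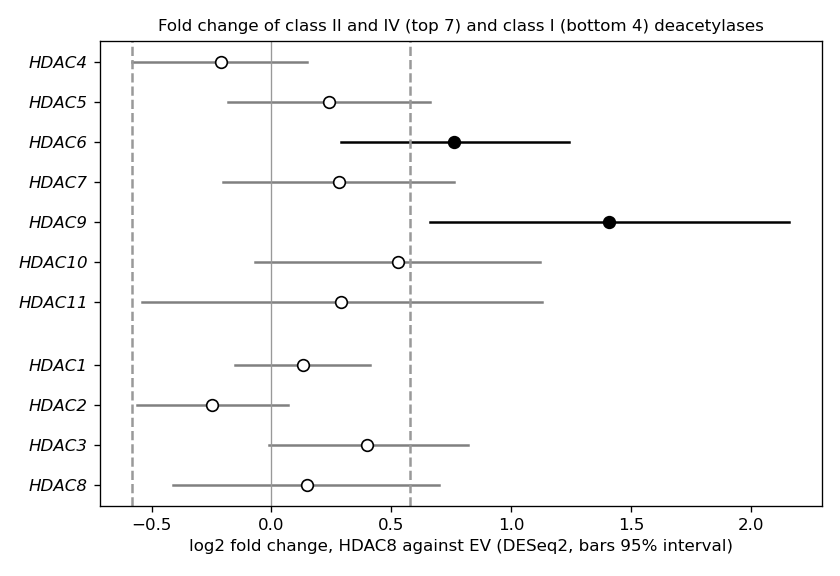
Log2 fold change of the HDAC8 group against EV from DESeq2, with 95% intervals, for the 7 class II and IV genes and, beneath them, the 4 class I genes; filled points were called and dashed lines mark 0.58 in either direction. HDAC9 at 1.41 and HDAC6 at 0.76 are the filled points, and the intervals of the other 9 genes include 0.

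The spread within groups was not alike among members. In EV the coefficient of variation ran from 11.8% for HDAC9 to 24.1% for HDAC5. In the HDAC8 group it ran from 6.49% for HDAC4 to 49.8% for HDAC10, with 41.1% for HDAC11 and 34.4% for HDAC9. HDAC8 replicate 1 was the highest library of its group in 6 of 7 members, and in 39.9% of 14451 genes whose mean normalized count reached 50.

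The departure of HDAC8 replicate 1 moved with the GC content of transcripts. Over genes under 40% GC its log2 level was lower than the mean of the other HDAC8 libraries by a median of -0.50, and over genes of at least 60% GC it was higher by a median of 0.44. The member with the lowest GC content, HDAC9 (40.2%), differed by -0.99 in that library, where the median over genes of 40% to 45% GC was -0.26. HDAC10, with the highest GC content (66.3%), differed by 1.13, and HDAC11 (60.2%), HDAC6 (57.6%) and HDAC7 (62.7%) by 0.81, 0.57 and 0.43. HDAC5 (61.2%) and HDAC4 (53.1%) differed by 0.23 and 0.09. The median was 0.30 over genes of 55% to 60% GC and 0.16 over those of 50% to 55%. HDAC9, HDAC10, HDAC11 and HDAC6 thus departed by more than the median of their GC range, and HDAC7, HDAC5 and HDAC4 did not. With normalization within 20 bins of GC content, chosen after seeing the data, HDAC9 stayed called at a log2 fold change of 1.48 (DESeq2 adjusted p = 0.000156) and HDAC6 at 0.64 (adjusted p = 0.0058), while HDAC10 was at 0.28.

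**Figure D3:**
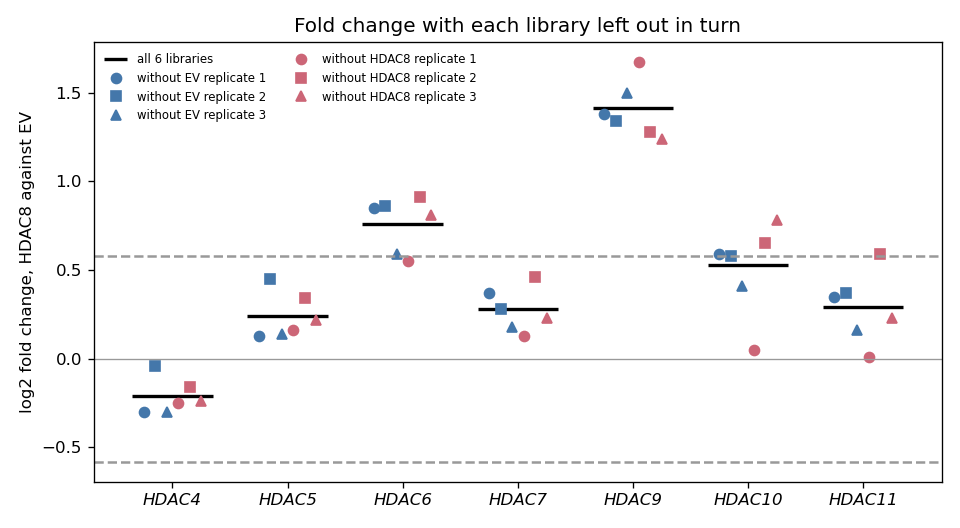
Log2 fold change of each member in the fit of all 6 libraries (black line) and in 6 fits that each leave out the library named in the key; dashed lines mark 0.58 in either direction. HDAC9 stays between 1.24 and 1.67, HDAC6 between 0.55 and 0.91, and HDAC10 falls to 0.05 without HDAC8 replicate 1.

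Levels were compared between genes as normalized counts per kilobase of the main annotated transcript. In EV the order was HDAC10 (370 ± 52.9), HDAC5 (308 ± 74.2), HDAC4 (295 ± 57.9), HDAC6 (252 ± 53.1), HDAC7 (219 ± 27.6), HDAC11 (81.8 ± 13.4) and HDAC9 (17.1 ± 2.02) normalized counts per kilobase (SD, n = 3). Each of the first 5 overlapped its neighbour in this order, whereas HDAC11 was below HDAC7 and HDAC9 below HDAC11 in every EV library. In the HDAC8 group HDAC10 (532 ± 265) and HDAC6 (427 ± 105) were followed by HDAC5 (364 ± 45.2), HDAC7 (265 ± 62.8), HDAC4 (255 ± 16.5), HDAC11 (100 ± 41.2) and HDAC9 (45.5 ± 15.7). HDAC6 moved from the fourth place to the next highest, but its range overlapped those of HDAC10 and HDAC5. HDAC9 stayed in the last place with a range that reached HDAC11, and made up 1.11% of the summed level of the 7 genes in EV and 2.29% in the HDAC8 group.

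On the same scale HDAC9 was above 34.9% of tested genes in EV and above 49.0% in the HDAC8 group, and HDAC6 above 70.8% and 79.4%. For comparison, the class I gene HDAC1 was at 2640 ± 188 and 2880 ± 271 per kilobase, well above every class II or IV gene. HDAC3, the enzyme of the NCOR complex, was at 520 ± 59.5 and 688 ± 84.6. The other class I genes lay among the class II genes, HDAC2 at 312 ± 8.73 and 263 ± 30.5 and HDAC8 at 241 ± 28.5 and 267 ± 11.6. Summed per kilobase, class IIa was at 839 ± 134 in EV and 929 ± 115 in the HDAC8 group, and class IIb at 621 ± 106 and 960 ± 362. By library the class IIb sum was 684, 680 and 499 in EV and 1380, 778 and 725 in the HDAC8 group, with the highest value again in HDAC8 replicate 1. These levels depend on the length chosen: over the merged exons of all annotated transcripts HDAC6 fell from 339 to 96.6 per kilobase over all libraries and to the fifth place. By that length the class I gene HDAC8 fell from 254 to 19.4, close to HDAC9 at 17.9, so its place among the class II genes is not settled.

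**Figure D4:**
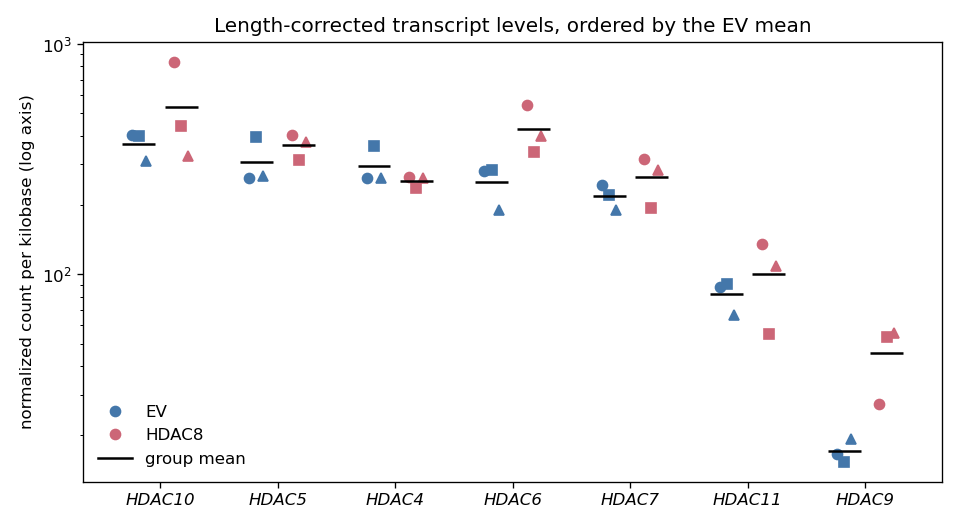
Normalized counts per kilobase of the main transcript on a log axis, with a point per library and a line at each group mean, for the 7 members ordered by the EV mean. Each of the first 5 genes overlaps its neighbour in the EV order, HDAC11 lies lower, and HDAC9 has the lowest mean in both groups.

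Genes next to the called members were not called. Beside HDAC9, TWIST1, a transcription factor of the mesenchymal transition, lies 18575 bases away and had means of 232.5 in EV and 279.0 in the HDAC8 group (log2 fold change 0.26, DESeq2 adjusted p = 0.792). On the other side SNX13, a sorting nexin 146448 bases away, had a log2 fold change of -0.16 (DESeq2 adjusted p = 0.723). The 5 annotated genes of the table that overlap HDAC9, all on the opposite strand, had no count in any library. Beside HDAC6, PQBP1, a polyglutamine-binding protein of RNA splicing 65215 bases away, had means of 630.6 and 1060.2 that did not overlap between groups (log2 fold change 0.75, DESeq2 adjusted p = 0.0503) and missed the threshold. SUV39H1, a histone H3 methyltransferase 92361 bases away, had a log2 fold change of 0.39 (DESeq2 adjusted p = 0.406). No gene of the table overlapped HDAC6. HDAC5 shares 1826 exonic bases with G6PC3 on the opposite strand. G6PC3, outside the naming rule, was lower (log2 fold change -0.63, DESeq2 adjusted p = 0.0234).

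The genes whose pattern over the 6 libraries was most like that of HDAC9, by Pearson correlation of log2 normalized counts among 14450 other genes, were METTL2B, a methyltransferase of tRNA (r = 0.999), TRIP13, an ATPase of the spindle checkpoint (0.997), YIPF5, a Golgi protein (0.995), FNDC3A (0.995) and ITGA2, a collagen-binding integrin (0.995). All had HDAC8 replicate 1 between EV and the rest of its group. The likeness is one of shape and not of size, since their log2 fold changes were only 0.29 to 0.79. YIPF5, FNDC3A and ITGA2 were called, and METTL2B, which has a near-identical copy in the genome, and TRIP13 were not. Among the members themselves, HDAC7 and HDAC11 were most alike (r = 0.95 over 6 libraries) and HDAC9 and HDAC4 least (r = -0.60), as a description of libraries that share their depth and composition.

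The proteins that class IIa deacetylases bind were examined by lists. For these and the later lists, 5.57% of all genes with an adjusted p were called higher and 5.44% lower. Whether any list differs from all genes was not tested. Of 4 MEF2 factors, with a median log2 fold change of 0.10, MEF2C rose and 3 did not pass the test. MEF2C, a factor of neural crest and muscle, had 781.2, 642.5 and 620.6 normalized counts in EV and 1150.9, 1555.7 and 1496.2 in the HDAC8 group, with no overlap (log2 fold change 1.04, SE 0.23, DESeq2 adjusted p = 1.02e-04). MEF2A had a log2 fold change of 0.36 (DESeq2 adjusted p = 0.320) and MEF2D one of -0.16 (adjusted p = 0.804). Of 6 genes of the NCOR complex (median 0.21), GPS2, a small subunit that restrains inflammatory signalling, was called higher, from 1289.1 ± 176.6 to 2009.8 ± 163.6 (SD, n = 3; log2 fold change 0.64, DESeq2 adjusted p = 0.00935). The scaffold NCOR1 had a log2 fold change of 0.26 and was not called, nor was HDAC3 (0.40, DESeq2 adjusted p = 0.223). The GPS2 call was lost without EV replicate 3 (adjusted p = 0.121) or HDAC8 replicate 3 (0.105), and with GC-bin normalization its log2 fold change of 0.55 was under the minimum; its adjusted p ran from 0.00442 to 0.121 over the alternatives.

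Of 17 kinases that phosphorylate class IIa proteins or act upstream of those that do, 3 were lower, 0 higher and 14 not called, among these 1 without an adjusted p. Over all genes the shares called were 5.44% lower and 5.57% higher. The median of the list was 0.08 on the log2 scale. At an unadjusted p under 0.05 there were 3 lower and 3 higher, and edgeR called 3 lower and 0 higher. PRKD3, a protein kinase D, had 29893.5, 24421.4 and 29149.9 normalized counts in EV and 9018.5, 13137.8 and 11269.6 in the HDAC8 group. All its EV libraries were far above all HDAC8 libraries (log2 fold change -1.32, SE 0.16, DESeq2 adjusted p = 5.77e-15). PRKD1, of the same family, was lower by -0.65 (SE 0.17, adjusted p = 0.0022). CAMK4, a calcium/calmodulin-dependent kinase, was lower by -0.77 (SE 0.23, DESeq2 adjusted p = 0.0114). PRKD2, the remaining family member, was not called (0.32, adjusted p = 0.474), and neither were SIK1, SIK2, SIK3 or STK11. Without EV replicate 1 CAMK4 was not called (adjusted p = 0.136, range 3.08e-04 to 0.136), nor without EV replicate 3 (0.0501) or without HDAC8 replicate 1, where its change was -0.55. PRKD1 fell just under the fold minimum without HDAC8 replicate 2. Of 7 genes for 14-3-3 proteins (median 0.05) DESeq2 called 0, with 1 higher and 0 lower at an unadjusted p under 0.05 and 0 called by edgeR.

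Genes known as targets of MEF2 did not move one way. Of 11 on the list, which includes HDAC9 itself, 2 were higher and 3 lower, with a median log2 fold change of -0.25. MMP10, at 12.6 normalized counts in EV replicate 1 and 0 elsewhere, had no adjusted p and stands among those not called. The shares over all genes were 5.57% higher and 5.44% lower. JUN, a subunit of AP-1, rose from 573.5 ± 44.2 to 1300.8 ± 334.8 (SD, n = 3; log2 fold change 1.18, DESeq2 adjusted p = 4.62e-05). PPARGC1A, a coactivator of mitochondrial genes, fell from 5035.5 ± 238.9 to 3084.7 ± 339.7 (SD, n = 3; log2 fold change -0.71, DESeq2 adjusted p = 7.18e-05). The Krüppel-like factor KLF6 was lower by -0.71 (adjusted p = 6.04e-04) and the nuclear receptor NR4A3 by -1.23 (adjusted p = 0.00586). NR4A3 was not called without EV replicate 1 (adjusted p = 0.128, range 4.32e-04 to 0.128), and KLF6 was at -0.57 without HDAC8 replicate 1. NR4A1, the best-known target of class IIa repression, had a log2 fold change of -0.30 (DESeq2 adjusted p = 0.274).

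For the class IIb enzymes, genes of their substrates were counted. Of 13 genes for proteins that HDAC6 deacetylates or binds, or that act on the same substrate, 1 was higher and 1 lower, with a median of 0.06. Among all genes 5.57% were called higher and 5.44% lower. TUBA4A, an alpha-tubulin, had 0, 25.2 and 23.6 normalized counts in EV and 104.3, 126.0 and 105.6 in the HDAC8 group (log2 fold change 2.78, SE 0.96, DESeq2 adjusted p = 0.0341), and it reached the mean of 50 for naming only through the latter. TUBA1A, another alpha-tubulin with near-identical copies that can share reads, was lower by -0.59 (SE 0.16, adjusted p = 0.00399). Both calls depended on the processing or on single libraries. TUBA4A was lost with edgeR (adjusted p = 0.0655) and limma-voom (0.0558) and without any one of the HDAC8 libraries (0.0703 without replicate 1, 0.12 without replicate 2 and 0.13 without replicate 3), with a range of 0.0127 to 0.13. TUBA1A was at -0.55 with total-count size factors, and at -0.50, -0.58 and -0.54 without EV replicate 2, HDAC8 replicate 2 and HDAC8 replicate 3. The alpha-tubulin TUBA1B (-0.17), cortactin CTTN (0.13), the chaperone HSP90AA1 (0.30) and the tubulin acetyltransferase ATAT1 (0.01) were not called.

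Polyamines are substrates of HDAC10. Of 15 genes of their metabolism 14 were tested, and 2 were higher and 0 lower, with a median of 0.09. Beside these stand 5.57% called higher and 5.44% lower over all genes. At an unadjusted p under 0.05 there were 4 higher and 0 lower, and edgeR called 2 higher and 0 lower. SAT1, the enzyme that acetylates spermidine and spermine, had 4665.2, 4806.0 and 5111.8 normalized counts in EV and 9092.1, 8568.0 and 8068.0 in the HDAC8 group. Replicates lay close together and the groups far apart (log2 fold change 0.82, SE 0.13, DESeq2 adjusted p = 3.14e-08). ATP13A2, a lysosomal polyamine exporter, was higher by 0.62 (SE 0.19, DESeq2 adjusted p = 0.0121). Its call was lost without EV replicate 1 (adjusted p = 0.159, range 6.14e-05 to 0.159), EV replicate 3 (0.139) or HDAC8 replicate 1 (log2 fold change 0.45), and with GC-bin normalization (0.43). ODC1, the rate-limiting enzyme of synthesis, had a log2 fold change of -0.24 (DESeq2 adjusted p = 0.331). Of the 4 class I deacetylases DESeq2 called 0, and their log2 fold changes ran from -0.25 for HDAC2 to 0.40 for HDAC3. At an unadjusted p under 0.05 there were 0 of these, and edgeR called 0.

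**Figure D5:**
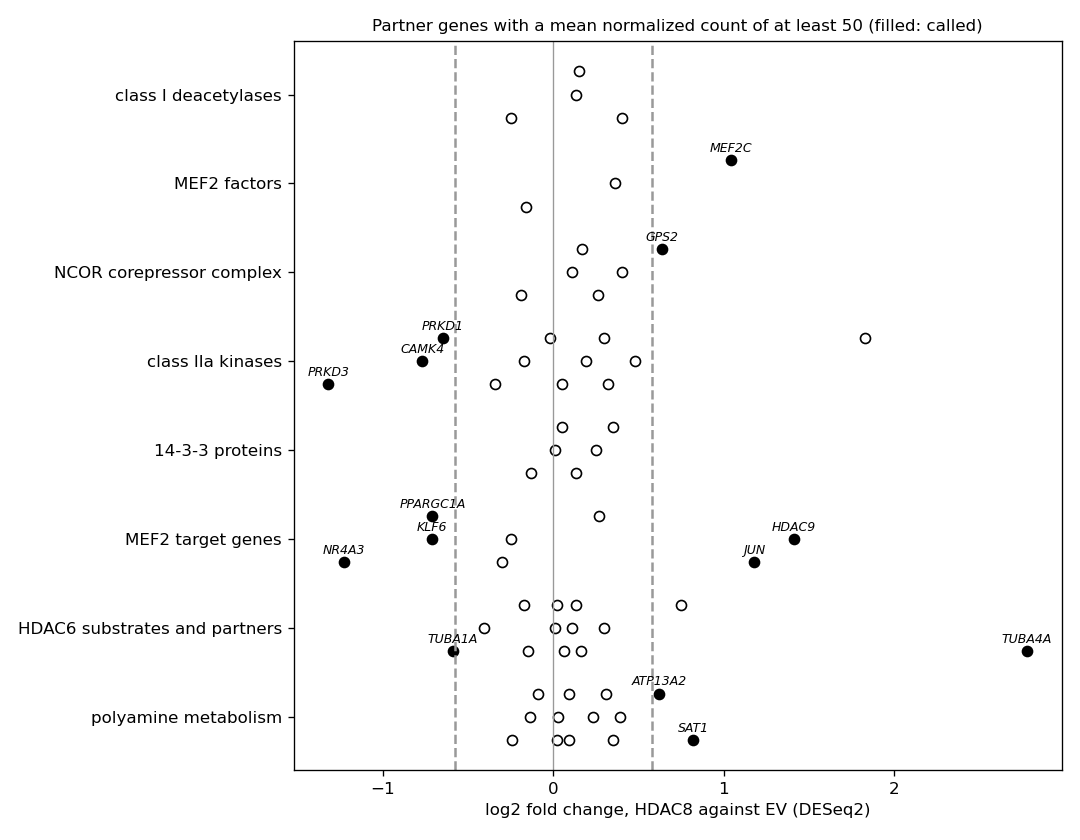
Log2 fold change of the HDAC8 group against EV for list genes whose mean normalized count reached 50, with filled and named points for called genes and dashed lines at 0.58 in either direction; vertical offsets within a list only separate the points. PRKD3 at -1.32 is the lowest point, TUBA4A at 2.78 reaches the plotted level only through the HDAC8 group, and the 14-3-3 and class I lists have no filled point.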

How the data were processed

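The deposited values are expected counts per gene that the authors obtained with RSEM, after trimming by Trimmomatic and transcriptome alignment by STAR of paired-end reads, and they are not scaled between libraries. The 6 libraries held 34741083 to 42041462 counts. An expected count divides ambiguous reads between genes. Build, annotation and strand setting are not given in the sources used here.

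Counts were rounded and genes with a total of at least 10 were fitted in DESeq2 1.42.0 (R 4.3.3; Wald test, two-sided), EV against HDAC8, 3 libraries each, without covariates. A gene was called at a Benjamini-Hochberg adjusted p under 0.05 and an absolute log2 fold change of at least 0.58. The tool and both thresholds follow the methods of the study, and the rounding, filter and model were chosen here. Genes without an adjusted p (5141) were left out of the shares called over all genes. Within the lists such genes stayed in the totals as not called. Normalized counts are counts divided by the DESeq2 size factor. Nothing states that replicates were separate cultures, so p-values measure only the spread between these libraries. Replicates differed by more than counting noise (chi-square over degrees of freedom of 25.99 to 153.38), and same-numbered libraries did not deviate together (correlations of -0.07 to 0.04).

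Positions, lengths and GC content are from GENCODE 44 (GRCh38), joined by Ensembl identifier (56558 found), and may differ from the build of the authors. Transcript length was that of the MANE Select or canonical transcript. Alternatives were edgeR 4.0.16, limma-voom (limma 3.58.1), other size factors and filters, a replicate block, a test against the fold minimum, each library left out, no mitochondrial genes and GC-bin normalization. The fits were tested on simulated data. Intervals are at the 95% level.

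Members and lists were chosen with earlier results of these data known. Named genes are the 7 members, the class I genes, called list genes whose mean normalized count reached 50, the 5 genes most like the member with the largest change, and neighbours of called members; other genes are named as outside this rule or as markers or list members.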

Additional observations from a re-analysis of the deposited data

How the results depend on the processing

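HDAC9 was called in 14 and HDAC6 in 12 of 15 alternatives other than the test against the fold minimum, and the other members in 0. No member changed direction. Against a fold change minimum of 0.58 itself, 0 members were higher (HDAC9 at 1.41, adjusted p = 0.524, and HDAC6 at 0.76, adjusted p = 1), 0 partner genes were higher and 1 lower, and of all genes 292 were higher and 291 lower, since that test asks for a change beyond the minimum. Without 1 library at a time, 0 to 2 members were higher, and the log2 fold change ran from 1.24 to 1.67 for HDAC9 and from 0.55 to 0.91 for HDAC6. Of all genes 877 to 1218 were then higher and 746 to 1378 lower, with the lowest count of lower genes without EV replicate 3. The replicate block changed no call among members or named partner genes (HDAC9 at 1.35, DESeq2 adjusted p = 0.016, and HDAC6 at 0.76, adjusted p = 0.0274), and the replicate numbers did not pair the libraries. Merged exon length gave levels per kilobase of 235 for HDAC5, 234 for HDAC10, 164 for HDAC4, 103 for HDAC7, 96.6 for HDAC6 and 49 for HDAC11, in place of 336, 451, 275, 242, 339 and 91, so the order of the first 5 depends on the length chosen. With 3 libraries a group, the intervals of HDAC10 and HDAC11 are wide and take in both no change and a rise of over 2-fold.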
